A study of Rattus norvegicus with 14 samples.

Results

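Fetal rat testes exposed in utero to dicyclohexyl phthalate (DCHP) at 600 mg/kg/day were set against testes of vehicle litters, across all expressed genes. The comparison takes 6 of the 14 libraries of the study, chosen by the dose in the sample labels: 3 litters at 600 mg/kg/day and 3 litters whose dams had the corn oil vehicle alone. DCHP is a phthalate diester used as a plasticizer. All dams were Harlan Sprague Dawley rats dosed by gavage in corn oil on gestational days 14 to 18, and testes of the male fetuses were taken on gestational day 18. By the labels both groups thus share the strain, the oil, the dosing days and the age, and differ in the phthalate. No batch is given in the labels, so whether processing differed between the groups is not known. The other 8 libraries, 3 litters each at 100 and 300 mg/kg/day and 2 litters at 900 mg/kg/day, entered the same model and helped to estimate the spread between litters. Testes were pooled within a litter before RNA was extracted, so the litter is the replicate. In such bulk samples fewer cells of a type and less RNA per cell cannot be told apart.

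The fetal testis makes testosterone in the Leydig cells that lie between the cords. Cholesterol reaches these cells from lipoproteins or is built from acetyl-CoA along the mevalonate pathway, and is carried into mitochondria, where the side chain is cut off to give pregnenolone. Enzymes of the endoplasmic reticulum then turn pregnenolone into testosterone, which drives masculinization of the male tract. In rats several phthalate diesters given to the dam in this window are known to lower fetal testosterone and the transcripts of this pathway. The cords hold Sertoli cells, which secrete anti-Mullerian hormone, and germ cells.

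Expression was read with TempO-Seq, an assay that joins 2 neighbouring probes where both sit on a transcript and counts the joined products by sequencing. Libraries of the 600 mg/kg/day litters held 8107840, 6741066 and 5558873 estimated counts, and those of the vehicle litters 10043652, 10198123 and 8946454. Every library at 600 mg/kg/day was thus less deep than every vehicle library, and the part of depth in the results was not tested. Markers of the main testis cells were present in all 6 libraries: the Sertoli cell gene Sox9 averaged 342 ± 21.6 CPM at 600 mg/kg/day and 307 ± 22.9 CPM in vehicle, and the germ cell gene Ddx4 562 ± 29.7 and 519.6 ± 65.5 CPM (SD, n = 3 each). Levels are CPM, scaled to library totals after TMM normalization. The first principal component held 36.1% of the variance, and on it the 600 mg/kg/day litters lay at 19.1, 6.11 and 20.5 and the vehicle litters at -42.6, 33.3 and 7.25. Vehicle replicate 1 lay beside the 900 mg/kg/day litters (-38.2 and -22.8), with 100 mg/kg/day replicate 1 at -65.1, so the dose groups did not separate on that axis.

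At 600 mg/kg/day 24 genes were lower than in vehicle and 4 were higher. These 28 are 0.22% of the 12719 genes tested, with 0.189% falling and 0.0314% rising, by edgeR's quasi-likelihood test at a Benjamini-Hochberg adjusted p under 0.05. In all 28 the 3 litters at 600 mg/kg/day lay entirely on one side of the 3 vehicle litters. Over all tested genes 5.92% had the 600 mg/kg/day litters all below vehicle and 5.06% had them all above, and 53.2% had a negative log2 fold change. The 24 lower genes stood at 12.5% to 66.3% of their vehicle level, and 12 of them at less than 50% of it. The median log2 fold change of all tested genes was -0.02. Genes at an unadjusted p under 0.05 numbered 609, or 4.79%.

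**Figure D1:**
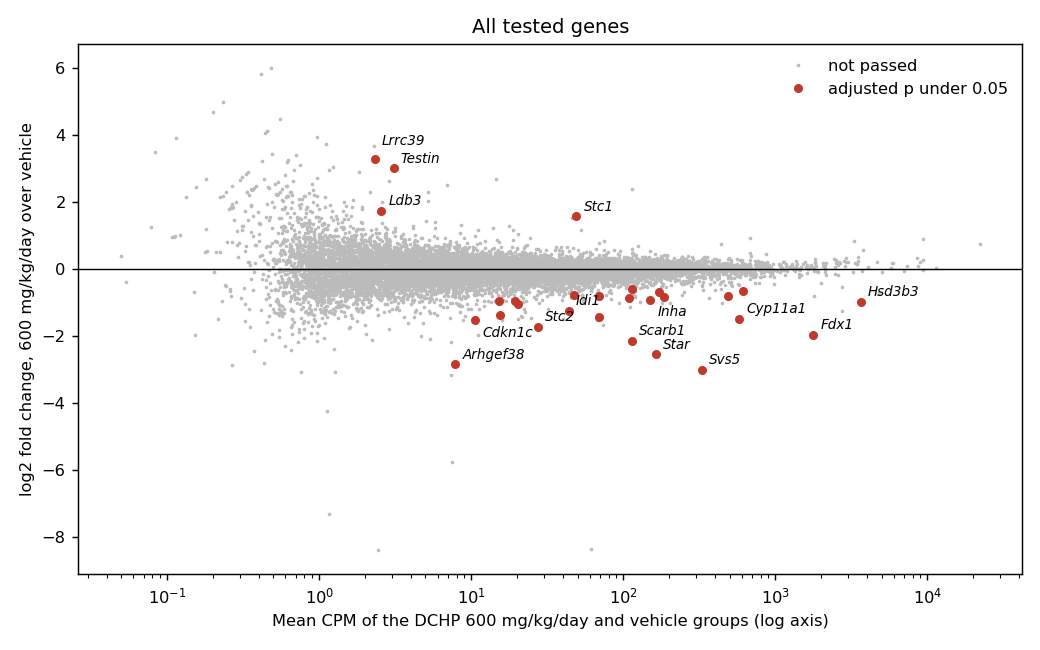
Log2 fold change of DCHP 600 mg/kg/day over vehicle (vertical axis) against the mean CPM of both groups (horizontal log axis) for the 12719 tested genes, each a point, with the 28 that passed an edgeR adjusted p under 0.05 in red. The 24 falls include high-abundance genes of steroid synthesis such as Fdx1 (-1.96) and Hsd3b3 (-0.97), while 3 of the 4 rises, Lrrc39, Testin and Ldb3, lie at low abundance.

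Of the genes of steroid synthesis that passed, the 2 that bring in cholesterol had the most negative values. Scarb1, the receptor through which steroid-making cells take cholesterol from high-density lipoprotein (chromosome 12, 31296156 to 31362648, plus strand, rn7), had 41.5, 54.9 and 31.1 CPM in the 600 mg/kg/day litters, against 201, 192 and 165 CPM in the vehicle litters. Star, which moves cholesterol into the mitochondrion (chromosome 16, 66264807 to 66271673, minus strand), had 54.8, 55.5 and 33.8 CPM at 600 mg/kg/day and 343, 209 and 283 CPM in vehicle. In both genes the highest litter at 600 mg/kg/day stood far below the lowest vehicle litter. The log2 fold change was -2.13 ± 0.23 for Scarb1 and -2.53 ± 0.26 for Star (SE), each with edgeR adjusted p = 0.00147. Star was thus left at 17.3% of its vehicle level and Scarb1 at 22.9%.

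The mitochondrial enzyme system that makes pregnenolone moved in the same direction. Fdx1, the ferredoxin that hands electrons to the side-chain cleavage enzyme (chromosome 8, 52268536 to 52287415, minus strand), had 862, 749.7 and 578 CPM at 600 mg/kg/day and 2459, 3491 and 2541 CPM in vehicle, a log2 fold change of -1.96 ± 0.21 (edgeR adjusted p = 0.00147). Cyp11a1, the side-chain cleavage enzyme itself (chromosome 8, 58404669 to 58434339, plus strand), had 369, 322 and 220.5 CPM at 600 mg/kg/day and 696, 1083 and 759.9 CPM in vehicle. Its groups did not overlap, and its log2 fold change was -1.48 ± 0.26 (edgeR adjusted p = 0.0433), or 35.9% of the vehicle level. Fdxr, the reductase that charges Fdx1, averaged 86.7 ± 8.95 CPM at 600 mg/kg/day and 171 ± 40.9 CPM in vehicle (SD, n = 3 each) and did not pass in edgeR (-0.98 ± 0.25, adjusted p = 0.341). DESeq2 called it (adjusted p = 0.0392), and so did edgeR when vehicle replicate 1 and replicate 1 of the 100 mg/kg/day litters were both left out (adjusted p = 0.00236). Its 3 litters at 600 mg/kg/day lay below all 3 vehicle litters.

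Of the enzymes that follow, Hsd3b3, a 3-beta-hydroxysteroid dehydrogenase, was the most abundant and fell, with a log2 fold change of -0.97 ± 0.17. It had 2692, 2525 and 2202 CPM at 600 mg/kg/day and 4104, 5480.2 and 4909 CPM in vehicle (edgeR adjusted p = 0.0433). Counts of its close copy Hsd3b1 were 0.0836% to 0.0862% of those of Hsd3b3 in the 600 mg/kg/day litters and 0.0838% to 0.0854% in the vehicle litters, so the 2 genes cannot be told apart in these counts. Cyp17a1, which turns progestagens into androgens (chromosome 1, 245535462 to 245541574, minus strand), had 107, 72.9 and 57.0 CPM at 600 mg/kg/day and 223, 523 and 300.0 CPM in vehicle. The groups did not overlap, the vehicle litters differed among themselves by more than 2-fold, and the log2 fold change of -2.14 ± 0.40 did not pass in edgeR (adjusted p = 0.0584). DESeq2 called it, with adjusted p = 8.39e-05.

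Genes of the last steps did not pass. Hsd17b3, the testicular enzyme that makes testosterone from androstenedione, had 295, 262 and 294 CPM at 600 mg/kg/day and 280.1, 292 and 267 CPM in vehicle. These groups overlapped fully, with a log2 fold change of 0.02 ± 0.11 and a 95% interval of -0.21 to 0.25, so a fall as large as that of Hsd3b3 lies outside the interval. The sign of this value changed with library totals in place of TMM (-0.0034). Cyb5a, a partner of Cyp17a1, was at -0.25 ± 0.19 (95% interval -0.65 to 0.16). Por, the electron donor of the microsomal P450 enzymes, averaged 10.8 counts per library and was at -0.73 ± 0.49, too few counts for a firm value. In the list of testosterone synthesis genes as a whole 4 of 14 tested members fell and 0 rose, against 0.189% and 0.0314% of all tested genes. Of the 14, 11 were negative and 8 had all litters at 600 mg/kg/day below vehicle, against 53.2% and 5.92% of all tested genes. Hsd3b1 and Hsd3b3 are both among the 11 and the 8, although they cannot be told apart. The median log2 fold change was -0.94, close to the value of Hsd3b1 (-0.95). The summed level of the list was 4633, 4096 and 3590 CPM in the 600 mg/kg/day litters, against 8574, 11347 and 9250 CPM in the vehicle litters, on unscaled library totals. The calls of Star and Fdx1 remained in all 14 fits that left out 1 library, and so did that of Scarb1. Those of Cyp11a1 and Hsd3b3 did not survive in 9 and 9 of them (highest edgeR adjusted p 0.304 and 0.319). The 4 falls became 2 when vehicle replicate 2 or 3, replicate 3 of the 100 mg/kg/day litters, or any 1 litter at 300 or 600 mg/kg/day was left out. They also became 2 with RLE size factors, with a minimum mean count of 20 and with only the 6 libraries, and 6 when replicate 1 of the 100 mg/kg/day litters was left out or with DESeq2.

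**Figure D2:**
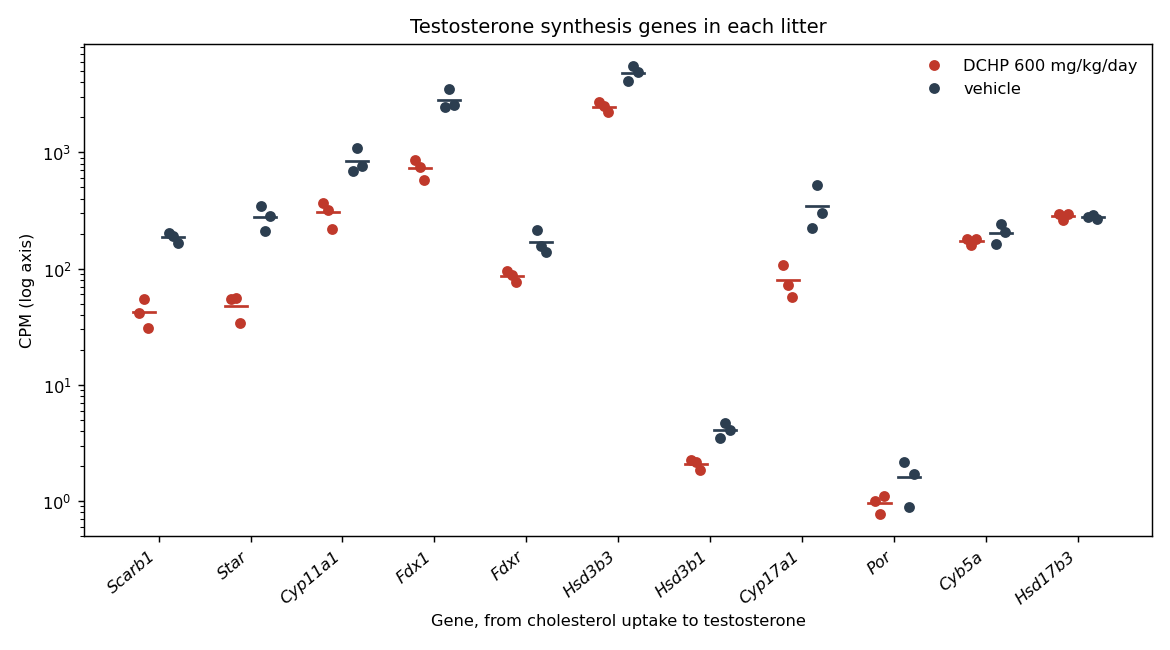
CPM (log axis) of genes from cholesterol uptake to testosterone in each litter, DCHP 600 mg/kg/day in red to the left of vehicle in dark blue, with a bar at each group mean (n = 3 litters each). Scarb1, Star, Cyp11a1, Fdx1, Fdxr, Hsd3b3, Hsd3b1 and Cyp17a1 have all 600 mg/kg/day litters below all vehicle litters, while the groups overlap for Por, Cyb5a and Hsd17b3.

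Genes of cholesterol synthesis had lower levels along the pathway, from the first condensation to the last reductions. All 15 tested members had a negative log2 fold change, 13 had every litter at 600 mg/kg/day below every vehicle litter, and 5 fell past the threshold. Over all tested genes these shares were 53.2%, 5.92% and 0.189%. The median was -1.02. Acat2, the cytosolic thiolase of the first step, averaged 37.3 ± 7.81 CPM at 600 mg/kg/day and 101 ± 17.2 CPM in vehicle (SD, n = 3 each), a log2 fold change of -1.43 ± 0.22 (edgeR adjusted p = 0.0185). Idi1, which makes the second isoprenoid building block, had 28.1, 27.8 and 22.2 CPM at 600 mg/kg/day and 52.3, 68.4 and 63.6 CPM in vehicle (-1.23 ± 0.19, edgeR adjusted p = 0.0171). In both genes the highest 600 mg/kg/day litter lay below the lowest vehicle litter by a wide gap.

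In the squalene branch, which commits isoprenoids to sterols, Fdft1 and Sqle fell by smaller amounts that were very even between litters. Fdft1, squalene synthase, averaged 132 ± 13.6 CPM at 600 mg/kg/day and 210.1 ± 9.56 CPM in vehicle (SD, n = 3 each; -0.67 ± 0.10, edgeR adjusted p = 0.0147). Sqle, squalene epoxidase, had 133, 148 and 126 CPM at 600 mg/kg/day and 222, 241 and 251 CPM in vehicle (-0.81 ± 0.11, edgeR adjusted p = 0.00626). Dhcr7, the reductase that makes cholesterol from 7-dehydrocholesterol, had 13.5, 12.6 and 14.2 CPM at 600 mg/kg/day and 27.5, 25.0 and 29.4 CPM in vehicle, and stood at 49.3% of the vehicle level (-1.02 ± 0.14, edgeR adjusted p = 0.0116). For each of these 3 genes the spread within a group was far smaller than the gap between the groups.

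The 10 other enzymes did not pass. Hmgcs1, which makes HMG-CoA, had 1.25, 0.777 and 0.370 CPM at 600 mg/kg/day and 1.99, 3.78 and 4.00 CPM in vehicle, with the most negative value of the list (-1.94 ± 0.48, edgeR adjusted p = 0.303) at only 18.3 counts per library. The kinase and decarboxylase genes Mvk and Mvd were at -0.71 ± 0.29 and -1.28 ± 0.33. In the ring-forming and demethylating steps Lss was at -1.19 ± 0.25, Cyp51 at -1.01 ± 0.37, Tm7sf2 at -1.46 ± 0.30, Msmo1 at -1.11 ± 0.26 and Hsd17b7 at -0.68 ± 0.15, each with the groups apart and edgeR adjusted p between 0.106 and 0.825. DESeq2 called 9 of the 15 as lower. The number of calls in edgeR, 5 with all libraries, changed with the libraries in the fit. It was 0 without 600 mg/kg/day replicate 3 and 1 without replicate 2 of that group or vehicle replicate 3. It was 2 without 600 mg/kg/day replicate 1 or vehicle replicate 2. Without 300 mg/kg/day replicate 1 there were 3, without 100 mg/kg/day replicate 1 there were 9 and with only the 6 libraries 0, while the median of the list stayed between -1.12 and -0.96 in the fits without 1 library. The summed level was 600.4, 586 and 496 CPM in the 600 mg/kg/day litters, against 1005, 1076 and 1069.9 CPM in the vehicle litters.

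**Figure D3:**
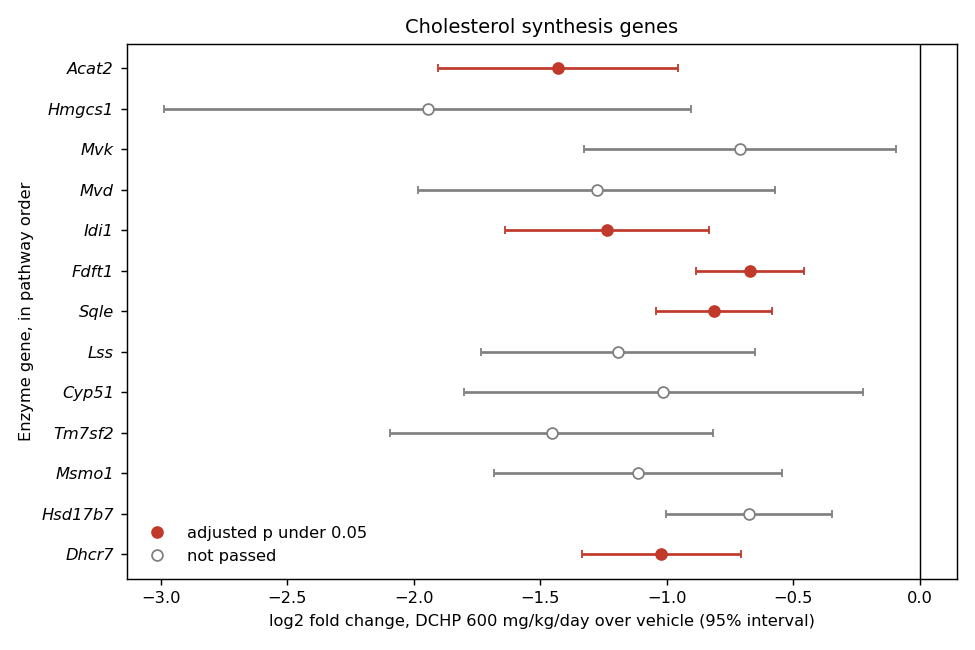
Log2 fold change of DCHP 600 mg/kg/day over vehicle with its 95% interval for 13 enzymes of cholesterol synthesis, in pathway order from the top, filled red where the edgeR adjusted p was under 0.05. All 13 points and their intervals lie left of 0.

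Promoter windows of 3 of these enzymes are shown as examples of a pathway whose tested genes all had negative values. Idi1 fell past the threshold, while Msmo1 and Hmgcs1 did not. The 3 windows hold copies of CCAAT, the core of the NF-Y box. The windows run from 250 bases before to 50 bases after the start of the gene (RefSeq, GRCr8, printed on the strand of the gene), and capitals mark CCAAT or its reverse complement ATTGG. They lie at chr17:66547475-66547774 on the minus strand for Idi1, chr16:29746863-29747162 on the plus strand for Msmo1 and chr2:53382054-53382353 on the plus strand for Hmgcs1.
Idi1: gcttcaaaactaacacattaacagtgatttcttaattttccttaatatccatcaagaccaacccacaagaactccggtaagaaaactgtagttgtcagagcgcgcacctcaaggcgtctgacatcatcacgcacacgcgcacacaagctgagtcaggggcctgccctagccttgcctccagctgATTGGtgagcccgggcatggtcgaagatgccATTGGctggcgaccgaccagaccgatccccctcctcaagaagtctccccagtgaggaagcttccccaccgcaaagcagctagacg
Msmo1: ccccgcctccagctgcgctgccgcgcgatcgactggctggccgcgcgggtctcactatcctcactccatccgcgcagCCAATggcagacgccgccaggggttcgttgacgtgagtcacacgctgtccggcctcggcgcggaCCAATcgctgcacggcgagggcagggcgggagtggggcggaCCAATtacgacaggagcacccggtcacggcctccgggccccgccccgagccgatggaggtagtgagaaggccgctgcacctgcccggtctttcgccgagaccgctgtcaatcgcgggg
Hmgcs1: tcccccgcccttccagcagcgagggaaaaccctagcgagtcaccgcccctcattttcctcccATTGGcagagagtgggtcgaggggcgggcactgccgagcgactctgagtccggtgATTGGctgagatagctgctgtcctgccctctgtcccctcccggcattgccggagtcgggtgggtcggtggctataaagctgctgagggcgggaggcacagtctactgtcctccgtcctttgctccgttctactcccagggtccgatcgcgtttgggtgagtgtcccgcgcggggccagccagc

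Only genes with a single window were used, which gave 11 of the 15 tested cholesterol synthesis genes. CCAAT was present on either strand in 8 of them (72.7%): Hmgcs1, Mvk, Mvd, Idi1, Lss, Tm7sf2, Msmo1 and Hsd17b7. The Msmo1 window held 3 copies and those of Idi1 and Hmgcs1 held 2 each. Of these 8 genes only Idi1 passed. Among the genes that fell and had a single window, CCAAT was in 4 of 15 (26.7%). Over all 33469 windows, which include genes with several, the share was 37.5%. Over the 8548 single windows of tested genes it was 37.4%. In the testosterone synthesis genes with a single window it was 3 of 11 (27.3%), namely Cyb5a, Hsd3b2 and Srd5a1. The 9-letter sterol regulatory element TCACNCCAC was present in 1.12% of all windows and 1.17% of the single windows of tested genes. It was in none of the 11 windows of cholesterol synthesis genes. These matches describe letters in the windows and not binding.

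Genes that sense, take up and move sterols were mixed. Scarb1, described above, was the 1 member of 23 tested that fell, 17 were negative and the median was -0.17. The median was 0.00 without vehicle replicate 1 and -0.29 without vehicle replicate 2. Insig1, the sterol-regulated anchor of SCAP, had 358, 303 and 219.7 CPM at 600 mg/kg/day and 390.3, 722 and 664 CPM in vehicle, groups that were apart without passing (-1.01 ± 0.24, edgeR adjusted p = 0.252). Stard4, a cytosolic sterol carrier, averaged 104 ± 14.9 CPM at 600 mg/kg/day and 153 ± 11.6 CPM in vehicle (-0.55 ± 0.12), and the lipoprotein receptor gene Lrp8 23.2 ± 2.41 and 40.1 ± 7.38 CPM (-0.79 ± 0.16); neither passed in edgeR. DESeq2 called Insig1, Stard4 and Lrp8 as lower too. Srebf2, the transcription factor that turns on cholesterol synthesis genes, had 238, 224 and 248 CPM at 600 mg/kg/day and 210.1, 288 and 239 CPM in vehicle. Its own transcript overlapped fully between the groups (-0.06 ± 0.15, 95% interval -0.37 to 0.26), with a sign that turned without vehicle replicate 2 (0.074).

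Fatty acid genes showed smaller differences. Of 14 tested genes of fatty acid synthesis 0 passed in either direction with edgeR or DESeq2, 6 had an unadjusted p under 0.05 in edgeR, 12 were negative and the median was -0.41. Without both vehicle replicate 1 and replicate 1 of the 100 mg/kg/day litters, edgeR called 3 as lower. Among them were Elovl6 (edgeR adjusted p = 0.00868) and Scd2 (0.0296), and the median in that fit was -0.31. Acly, which supplies cytosolic acetyl-CoA, had 303, 316 and 327 CPM at 600 mg/kg/day and 622, 431 and 396 CPM in vehicle, apart but not past the threshold (-0.61 ± 0.21). The desaturase gene Scd2 was at -0.44 ± 0.13 and the elongase gene Elovl6 at -0.51 ± 0.16. Scd, at 14.2 counts per library, was at -1.76 ± 0.74. Fasn, fatty acid synthase, was at -0.10 ± 0.32 with overlapping groups, and its sign turned when replicate 2 at 600 mg/kg/day (0.11) or replicate 3 of vehicle (0.057) was left out.

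Among 21 PPAR targets and genes of fatty acid oxidation 1 fell, Fabp3, a cytosolic fatty acid-binding protein. It had 340.3, 394 and 343 CPM at 600 mg/kg/day and 727, 505 and 624 CPM in vehicle, groups that did not overlap (-0.78 ± 0.14, edgeR adjusted p = 0.0433). Leaving out single libraries removed this call in 12 of 14 fits (highest edgeR adjusted p 0.304). Cpt1a, the carnitine palmitoyltransferase of mitochondrial fatty acid entry, was at -0.67 ± 0.43 with overlapping groups. Acaa2, a thiolase of beta-oxidation, was at -0.34 ± 0.13 with the groups apart, and it is 1 of 16 genes whose counts the authors adjusted for probe attenuation in a second table. The median of the list was -0.17. Pcyt2, an enzyme of phosphatidylethanolamine synthesis outside these lists, fell: it had 102, 88.2 and 84.7 CPM at 600 mg/kg/day and 134, 135 and 144 CPM in vehicle (-0.59 ± 0.10, edgeR adjusted p = 0.0378), with the call lost in 12 of the 14 fits.

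Other genes of the fetal Leydig cell had mostly negative values, with 1 of 23 tested past the threshold. That gene was Inha, the inhibin alpha subunit, which had 122, 107 and 81.6 CPM at 600 mg/kg/day and 172, 226 and 192 CPM in vehicle (-0.92 ± 0.15, edgeR adjusted p = 0.029; lost in 8 of the 14 fits). Insl3, the hormone of testis descent, had 2678, 1233 and 1028 CPM at 600 mg/kg/day and 2275, 5869 and 3444 CPM in vehicle. These groups overlapped, since replicate 1 at 600 mg/kg/day exceeded vehicle replicate 1, and the log2 fold change of -1.23 ± 0.39 did not pass (edgeR adjusted p = 0.681). Prlr, the prolactin receptor, had 7.88, 14.6 and 9.62 CPM at 600 mg/kg/day and 40.6, 24.3 and 24.9 CPM in vehicle (-1.49 ± 0.37, edgeR adjusted p = 0.303). Lhcgr, the luteinizing hormone receptor, had 1.63, 2.18 and 1.48 CPM at 600 mg/kg/day and 2.78, 3.28 and 4.91 CPM in vehicle (-1.04 ± 0.43), at 23.2 counts per library. Both receptors had their groups apart without passing in edgeR, and DESeq2 called Prlr (adjusted p = 0.0152), as did edgeR without both vehicle replicate 1 and replicate 1 of the 100 mg/kg/day litters (adjusted p = 0.0164).

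Transcription factors of steroidogenic cells did not pass. Nr5a1, or SF-1, had 98.1, 95.6 and 83.8 CPM at 600 mg/kg/day and 168, 114 and 115 CPM in vehicle, with the groups apart and a log2 fold change of -0.52 ± 0.21 (95% interval -0.97 to -0.07). Nr0b1, or DAX-1, had few counts and was at -0.83 ± 0.61. The list of other Leydig genes had a median of -0.27 with 17 of 23 negative, which was -0.10 without replicate 3 and -0.44 without replicate 1 at 600 mg/kg/day. Of 20 genes of cAMP and protein kinase A signalling 0 passed (1 at an unadjusted p under 0.05 in edgeR, 0 with DESeq2), with a median of -0.22. Its members with the smallest p were the phosphodiesterase genes Pde8a (-0.52 ± 0.22) and Pde4b (0.64 ± 0.30). Of 12 tested receptor genes for steroids, other hormones and growth factors 0 passed (1 unadjusted, 0 with DESeq2), and the estrogen receptor gene Esr1 was at -0.41 ± 0.15. No gonadotropin receptor is among the 12, since Fshr was left out by the count filter and Lhcgr is counted above.

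Among the genes that passed, the largest fall was outside the steroid pathway. Svs5, a seminal vesicle secretory protein gene (chromosome 3, 152996146 to 152997757, plus strand), had 109, 77.6 and 31.6 CPM at 600 mg/kg/day and 619.9, 554 and 573 CPM in vehicle. The vehicle litters were within a narrow range, the 600 mg/kg/day litters differed among themselves by more than 3-fold, and the highest of them lay far below the lowest vehicle litter. The log2 fold change was -2.99 ± 0.35, or 12.5% of the vehicle level (edgeR adjusted p = 0.00279), and the call remained in all 14 fits without 1 library. It was lost when vehicle replicate 1 and replicate 1 of the 100 mg/kg/day litters were both left out (edgeR adjusted p = 0.0562). Its promoter window is shown because, among the 15 genes that fell and had a single window, only Svs5 held the motif CAAGGNCA. SF-1 type receptors bind this motif. Capitals mark the 2 matches, 1 of them on the opposite strand, in the window at chr3:173415271-173415570 on the plus strand (GRCr8).
Svs5: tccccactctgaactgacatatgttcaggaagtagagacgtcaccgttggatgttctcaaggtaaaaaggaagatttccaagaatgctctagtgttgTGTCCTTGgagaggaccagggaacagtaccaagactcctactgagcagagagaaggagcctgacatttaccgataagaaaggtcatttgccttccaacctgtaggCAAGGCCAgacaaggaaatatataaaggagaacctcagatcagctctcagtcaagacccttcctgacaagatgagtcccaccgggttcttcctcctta

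On either strand this motif was present in 6.55% of all 33469 windows and in 4.53% of the 8548 single windows of tested genes. It was in 0 of the 11 single windows of testosterone synthesis genes. A single window was at hand for 15 of the 23 falling genes with a symbol and 3 of the 4 that rose. The window of Ldb3, a gene that rose, held the SF-1 type motif.

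Arhgef38, a guanine nucleotide exchange factor, had 1.63, 2.49 and 1.66 CPM at 600 mg/kg/day and 16.5, 15.9 and 8.80 CPM in vehicle. It was left at 14.0% of the vehicle level (-2.83 ± 0.48, edgeR adjusted p = 0.0357; lost in 9 of the 14 fits). Stc2, a secreted stanniocalcin, had 15.3, 12.9 and 9.99 CPM at 600 mg/kg/day and 45.6, 38.2 and 42.2 CPM in vehicle (-1.72 ± 0.24, edgeR adjusted p = 0.011; lost in 3 fits). It was the only faller among 14 genes of the unfolded protein and integrated stress responses, whose median was -0.29. Cdkn1c, an imprinted inhibitor of cyclin-dependent kinases (chromosome 1, 198655407 to 198658049, minus strand), had 5.50, 4.82 and 6.10 CPM at 600 mg/kg/day and 17.4, 14.4 and 15.5 CPM in vehicle. Litters of each group lay close together, and the value of -1.53 ± 0.18 passed in all 14 fits (edgeR adjusted p = 0.00316). It was the 1 of 16 imprinted growth genes that fell, with a list median of -0.12, and Igf2, the growth factor gene of the same imprinted region, was at -0.12 ± 0.11 with overlapping groups.

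The remaining falls were smaller. Rab33a, a small GTPase, had 9.63, 7.62 and 8.69 CPM at 600 mg/kg/day and 23.4, 24.2 and 19.7 CPM in vehicle (-1.37 ± 0.23, edgeR adjusted p = 0.0299). Slc41a3, a magnesium transporter family gene, averaged 13.1 ± 0.778 CPM at 600 mg/kg/day and 25.6 ± 4.40 CPM in vehicle (-0.96 ± 0.17). Cplx2, a regulator of vesicle fusion, averaged 50.9 ± 1.64 and 88.6 ± 7.55 CPM in the same groups (-0.80 ± 0.13). Reep6, which shapes endoplasmic reticulum membranes, averaged 35.3 ± 2.94 CPM at 600 mg/kg/day and 59.8 ± 5.67 CPM in vehicle (-0.76 ± 0.14). Crabp2, the cellular retinoic acid-binding protein, had 523, 475 and 424 CPM at 600 mg/kg/day and 720.1, 764 and 759.7 CPM in vehicle (-0.66 ± 0.11). These 5 had edgeR adjusted p between 0.0296 and 0.0458, and all had 3 litters at 600 mg/kg/day below 3 vehicle litters. Leaving out single libraries removed their calls in 9 to 13 of 14 fits. Crabp2 was the 1 of 15 tested genes of retinoic acid metabolism and reception that fell, with a list median of -0.08. The other 2 genes that fell were AABR07032097.1, known by a clone name (-0.94 ± 0.17), and 1 gene without a symbol.

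Only 4 genes rose. Stc1, the paralogue of Stc2 and likewise a secreted stanniocalcin (chromosome 15, 44299621 to 44310265, plus strand), had 64.5, 75.6 and 81.0 CPM at 600 mg/kg/day and 19.7, 27.9 and 26.5 CPM in vehicle. Every litter at 600 mg/kg/day was more than 2 times the highest vehicle litter, with a log2 fold change of 1.58 ± 0.23 (edgeR adjusted p = 0.0136; lost in 3 of the 14 fits). Testin, a protease-like protein secreted by rat Sertoli cells (chromosome 17, 3846899 to 3859386, plus strand), had 4.50, 5.13 and 6.84 CPM at 600 mg/kg/day and 0.695, 0.299 and 1.03 CPM in vehicle (3.01 ± 0.38, edgeR adjusted p = 0.00521). Its call remained in all 14 fits, at a mean of 20.8 counts per library.

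The other rises were muscle genes at low abundance. Ldb3, a protein of the muscle Z-disc, had 3.50, 4.66 and 3.70 CPM at 600 mg/kg/day and 1.49, 1.19 and 0.800 CPM in vehicle (1.74 ± 0.32, edgeR adjusted p = 0.0467). Lrrc39, a sarcomere protein of the M-band, had 2.63, 4.66 and 5.36 CPM at 600 mg/kg/day and 0.397, 0.697 and 0.114 CPM in vehicle (3.29 ± 0.60, edgeR adjusted p = 0.0458). Their groups did not overlap, at 18.7 and 15.3 counts per library, and their calls were lost in 12 and 11 of the 14 fits. The skeletal muscle list, on which both stood because they were known to rise, had a median of 0.78 over 16 tested genes. Of these 4 lay above vehicle in all litters, against 5.06% of all tested genes. Ldb3 and Lrrc39 are among the 4, so the count and the median were in part fixed by the choice of members. Its summed level was 308, 268 and 234 CPM at 600 mg/kg/day and 224, 240.1 and 221 CPM in vehicle, so that the groups overlapped, and the part of muscle tissue in these rises was not tested. Without replicate 2 at 600 mg/kg/day the median was 0.40. Of the 16 genes, 5 were negative, and Tnnt1, slow troponin T, had all 600 mg/kg/day litters below vehicle (-0.39 ± 0.15) and is named here after its values were seen, as is Myh4. Among its other members Tnni1, slow troponin I, was at 0.79 ± 0.17 with the groups apart (edgeR adjusted p = 0.17, DESeq2 adjusted p = 0.0122), and the fast myosin light chain gene Mylpf at 0.92 ± 0.33 with overlapping groups. Myh4, a fast myosin heavy chain gene outside the list, was lower with the groups apart (-1.78 ± 0.40, edgeR adjusted p = 0.171, DESeq2 adjusted p = 0.0318).

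Summed levels of markers were compared for the other cell types that the pools could hold. Peritubular and smooth muscle markers summed to 1397, 1427 and 1589 CPM in the 600 mg/kg/day litters, against 1042, 1245 and 1147 CPM in the vehicle litters, with no overlap. Of the 14 genes 0 passed in edgeR (3 at an unadjusted p under 0.05) or in DESeq2, and the median was 0.32. In all litters 4 lay above vehicle and 1 below, and 3 were negative, against 5.06%, 5.92% and 53.2% of all tested genes. The gene below was Actg2, an enteric smooth muscle actin (-0.53 ± 0.40), named after its values were seen. Tropomyosin 1 (Tpm1) was at 0.50 ± 0.17, calponin (Cnn1) at 0.53 ± 0.21 and smooth muscle actin (Acta2) at 0.36 ± 0.15. Because these are shares of a fixed total, a lower share of Leydig transcripts and a higher share of peritubular ones were not separated.

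Erythroid markers were the most variable. They summed to 26373, 78414 and 39478 CPM in the 600 mg/kg/day litters and 47147, 16543 and 23008 CPM in the vehicle litters. Replicate 2 at 600 mg/kg/day was the highest and vehicle replicate 2 the lowest, and the groups overlapped. The median of 20 tested erythroid genes was 0.63, with 0 passing in edgeR (2 unadjusted) or DESeq2, and it ranged from 0.13 (without replicate 2 at 600 mg/kg/day) to 1.07 (without vehicle replicate 1) in the fits without 1 library. The beta-globin gene Hbb-b1 was at 0.92 ± 0.32 (edgeR adjusted p = 0.816). The part of blood content in the other results was not tested.

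Sums of Sertoli, germ, endothelial and macrophage markers overlapped between the groups. Sertoli cell markers spanned 1945 to 2134 CPM at 600 mg/kg/day and 1934 to 2251 CPM in vehicle. Germ cell markers spanned 2249 to 2978 CPM at 600 mg/kg/day and 2172 to 2849 CPM in vehicle, and endothelial markers 524 to 569.7 CPM and 490.3 to 617 CPM. Macrophage markers spanned 75.4 to 80.6 CPM at 600 mg/kg/day and 74.7 to 75.9 CPM in vehicle. Interstitial progenitor markers spanned 6468 to 7057 CPM at 600 mg/kg/day and 6765 to 10231 CPM in vehicle, the highest being vehicle replicate 1. Adrenal markers, from the gland beside the testis, summed to 8.39 to 10.2 CPM at 600 mg/kg/day and 10.8 to 12.6 CPM in vehicle, and liver markers to 4.68 to 12.7 and 4.12 to 9.86 CPM. The adrenal list includes Hsd3b2, which is also on the testosterone synthesis list. Counts of Hsd3b2 were 0.0372% to 0.0616% of those of Hsd3b3 in the 6 libraries. The part of Hsd3b2 in the gap between the adrenal sums was not tested. Mesonephric duct markers spanned 138 to 170.1 CPM at 600 mg/kg/day and 130.3 to 159.6 CPM in vehicle. No member of these lists was at 0 in all 6 libraries.

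**Figure D4:**
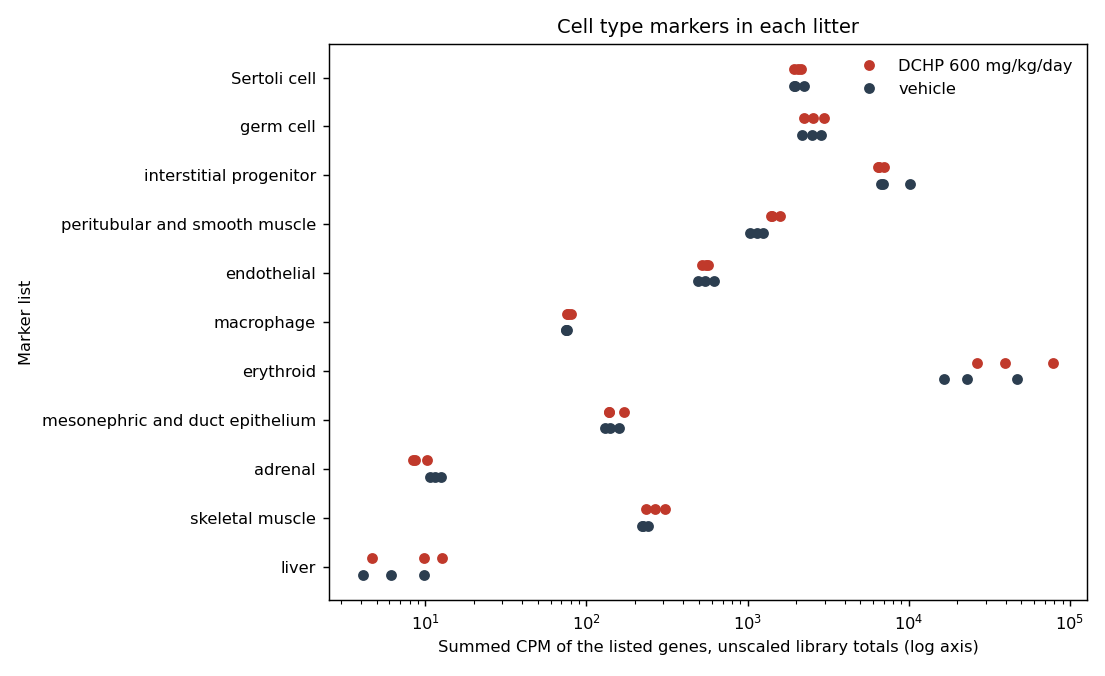
Summed CPM (log axis, unscaled library totals) of each marker list in each litter, DCHP 600 mg/kg/day in red above vehicle in dark blue. Only the peritubular and adrenal lists have groups that do not overlap, with peritubular sums of 1397 to 1589 CPM at 600 mg/kg/day and 1042 to 1245 CPM in vehicle, and the erythroid list has the widest spread. The adrenal list includes Hsd3b2, also a member of the testosterone synthesis list.

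Single genes of these lists were mostly within the spread of the vehicle litters or short of the threshold. Of 18 Sertoli cell markers only Testin rose, and it was placed on the list with its rise known; the median was 0.09. Amh, the anti-Mullerian hormone, had 163, 156 and 173 CPM at 600 mg/kg/day and 95.9, 220.4 and 148 CPM in vehicle, overlapping throughout (0.08 ± 0.26), and its sign turned without vehicle replicate 1 (-0.17). Dhh, the Hedgehog ligand of Sertoli cells that acts on Leydig progenitors, was at -0.42 ± 0.31, and Gdnf, the growth factor for spermatogonial stem cells, at -0.43 ± 0.20. Of 20 germ cell markers 0 passed in edgeR (1 unadjusted) or DESeq2, with a median of 0.10, and Ddx4 was at 0.11 ± 0.11 and Sall4 at 0.71 ± 0.33. Of 19 interstitial progenitor, 12 endothelial and 15 macrophage markers 0 passed in edgeR (0, 0 and 1 unadjusted) or DESeq2, with medians of -0.19, 0.01 and 0.01. Adrenal and liver markers, 4 and 7 tested, had 0 passing in edgeR (1 and 0 unadjusted) or DESeq2, with medians of -0.46 and 0.46, and 8 mesonephric markers 0 (0 unadjusted) with -0.17. These medians moved with single libraries. With 1 library left out the adrenal median ranged from -0.92 (without 100 mg/kg/day replicate 3) to -0.37, the liver median from 0.10 (without 600 mg/kg/day replicate 1) to 1.10 (without vehicle replicate 1), and the mesonephric median from -0.20 to 0.01 (without vehicle replicate 1).

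Signalling and housekeeping lists showed few calls. Inhibin, activin and BMP genes had a median of 0.05, with Inha the 1 of 20 that fell; the activin subunit gene Inhba had 69.0, 69.8 and 51.6 CPM at 600 mg/kg/day and 93.0, 124 and 92.2 CPM in vehicle, apart but not past the threshold in edgeR (-0.70 ± 0.16, adjusted p = 0.17; DESeq2 adjusted p = 0.0231). No gene of 11 in Hedgehog signalling, 27 in the cell cycle or 18 immediate early genes passed in edgeR (1 unadjusted in each) or DESeq2, with medians of -0.03, -0.06 and 0.16. The Hedgehog-binding antagonist Hhip was at 0.93 ± 0.35 and the mitotic activator Cdc20 at -0.71 ± 0.33. The sum of immediate early genes was 275, 323 and 289 CPM at 600 mg/kg/day, above 242.3, 242.5 and 241.7 CPM in vehicle. A gap between sums was not particular to this list. Sums were lower without overlap for cAMP (866 to 910 against 945 to 1066 CPM in vehicle), inhibin (1535 to 1616 against 1659 to 1805) and xenobiotic genes (2631 to 2901 against 2969 to 3685), among others. Those of Hedgehog, cell cycle and nuclear receptor genes overlapped. The transcription factor genes Egr1 and Fosl1 were at 0.49 ± 0.29 and 0.71 ± 0.33. Of 22 genes of the xenobiotic and oxidative stress response 0 passed in edgeR (3 unadjusted), with a median of -0.18. The glutathione transferase gene Gsta1 had 36.6, 36.4 and 32.4 CPM at 600 mg/kg/day and 174, 84.4 and 75.2 CPM in vehicle, apart but with vehicle replicate 1 well above the others (-1.66 ± 0.45), and DESeq2 called it (adjusted p = 0.0278). The epoxide hydrolase gene Ephx1 was at -0.91 ± 0.23. Of 11 nuclear receptors of metabolism 0 passed in edgeR (1 unadjusted) or DESeq2, with a median of 0.05.

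Beyond the 28 genes, 109 of the 12719 tested had an unadjusted p under 0.01, a minimum mean count of 20 and groups apart. They were picked by these values, and none passed in edgeR. Of them 84 were lower at 600 mg/kg/day and 25 higher, while 5.92% and 5.06% of all tested genes had groups apart in these directions. Among the lower ones Stk33, a serine/threonine kinase gene, had 1.38, 1.24 and 1.85 CPM at 600 mg/kg/day and 14.0, 12.5 and 12.9 CPM in vehicle (-3.15 ± 0.94, edgeR adjusted p = 0.554). Its groups were even and far apart, and its standard error rests on the spread within all 5 dose groups. Ctrb1, chymotrypsinogen B, was at -2.17 ± 0.71 with vehicle replicate 1 (24.1 CPM) far above the other vehicle litters (5.67 and 6.17 CPM). Lipg, endothelial lipase, was at -2.12 ± 0.46, Lynx1, a modulator of nicotinic receptors, at -2.07 ± 0.49, and the myosin gene Myh4 at -1.78 ± 0.40; DESeq2 called these 3. Among the higher ones Cadps, a factor of dense-core vesicle release, had 12.9, 8.71 and 15.2 CPM at 600 mg/kg/day and 6.65, 2.69 and 5.37 CPM in vehicle (1.32 ± 0.38, edgeR adjusted p = 0.501). Trim58, a ubiquitin ligase of maturing red cells, was at 1.19 ± 0.38 and highest in replicate 2, the litter with the most erythroid transcript. The class I histocompatibility gene RT1-S2 was at 1.16 ± 0.35, Fam227a at 1.04 ± 0.27 and the testis gene Tesmin at 0.94 ± 0.29.

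Litters at 600 mg/kg/day were also set against those at 100 and 300 mg/kg/day to ask where along the dose range levels differ. These comparisons share the 600 mg/kg/day litters with the one against vehicle, so their values stand side by side and are not independent. Against 100 mg/kg/day 0 genes passed in edgeR (0%), with 516 (4.06%) at an unadjusted p under 0.05, while DESeq2 called 14, of which 10 were lower. Against 300 mg/kg/day 0 passed in edgeR (0%) and 0 in DESeq2, with 161 (1.27%) and 144 genes unadjusted. Star was at -1.38 ± 0.25 against 100 and -0.66 ± 0.25 against 300 mg/kg/day, and Svs5 at -2.26 ± 0.34 and -0.74 ± 0.33. Svs5 and Stc1 had the lowest edgeR adjusted p against 100 mg/kg/day (0.0873 each). Fdx1 followed at -1.30 ± 0.20 (adjusted p = 0.0905), and Stc1 itself was at 1.63 ± 0.23 against 100 and 0.60 ± 0.22 against 300 mg/kg/day. Without a filter on low counts Fdx1 and Stc1 passed against 100 mg/kg/day.

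Levels along the dose range differed in shape between genes. Star had 343, 209 and 283 CPM in vehicle, 171, 115 and 90.8 CPM in the 100 mg/kg/day litters, 80.6, 83.2 and 64.8 CPM at 300, 54.8, 55.5 and 33.8 CPM at 600 and 45.5 and 47.5 CPM at 900 mg/kg/day. Every litter at 100 mg/kg/day lay below every vehicle litter, and the 600 and 900 mg/kg/day litters overlapped. Stc1 had 19.7, 27.9 and 26.5 CPM in vehicle, which overlapped with 16.6, 29.0 and 25.9 CPM in the 100 mg/kg/day litters, then 41.8, 51.1 and 53.4 CPM at 300, 64.5, 75.6 and 81.0 CPM at 600 and 55.7 and 87.8 CPM at 900 mg/kg/day. Sqle was 238 ± 14.4 CPM in vehicle, 184 ± 13.1 at 100, 142 ± 5.31 at 300, 135 ± 11.2 at 600 and 115 ± 13.7 at 900 mg/kg/day (SD), and its 300 and 600 mg/kg/day litters overlapped. Testin was at 2.04, 3.56 and 3.00 CPM at 300 mg/kg/day, below every litter at 600.

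**Figure D5:**
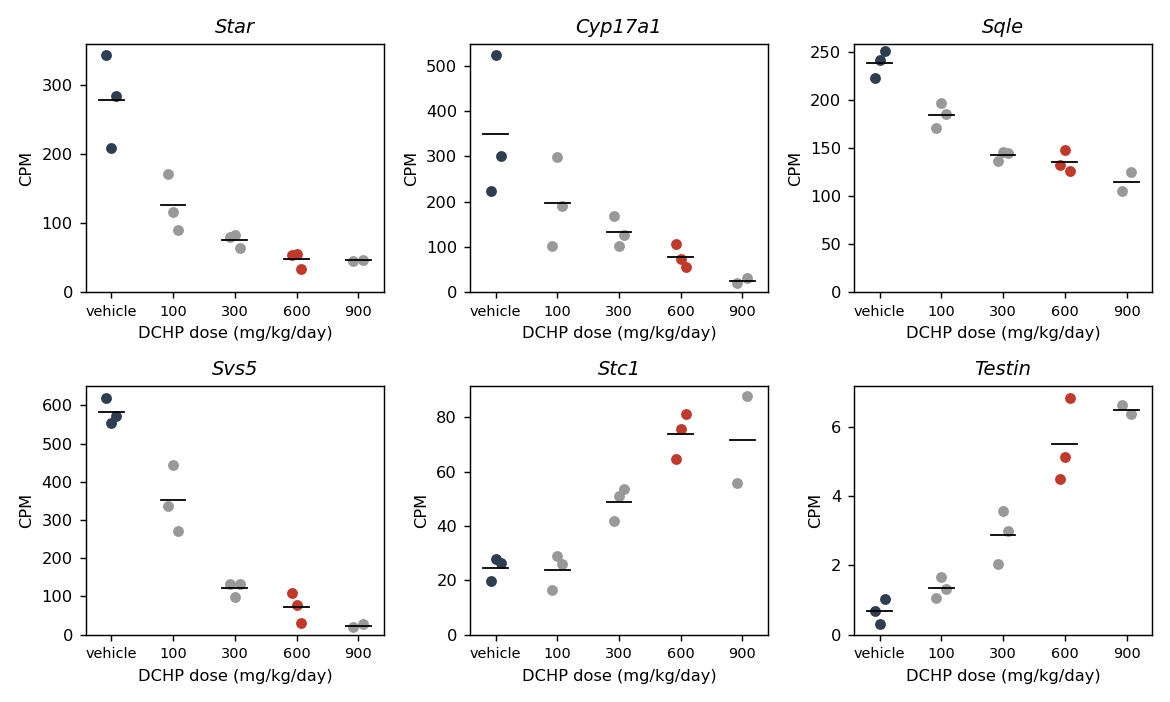
CPM of Star, Cyp17a1, Sqle, Svs5, Stc1 and Testin in all 14 litters by dose (horizontal axis, mg/kg/day), vehicle in dark blue, 600 mg/kg/day in red, other doses in grey, with a line at each mean. Star, Cyp17a1, Sqle and Svs5 are lower at every dose than in vehicle on average, Stc1 stands with vehicle at 100 mg/kg/day and above it from 300, and Testin is at 4.50 to 6.84 CPM at 600 mg/kg/day against 0.299 to 1.03 CPM in vehicle.

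The 3 litters at 600 mg/kg/day did not contribute evenly. Replicate 3, which also had the smallest library, was the lowest of the 3 in 17 of the 24 genes that fell and the highest in 3 of the 4 that rose. Among vehicle litters replicate 2 was the highest in 12 of the 24, replicate 1 in 8 and replicate 3 in 4. The count of 28 was 6, 7 and 11 without replicates 3, 2 and 1 at 600 mg/kg/day, and 7, 12 and 24 without vehicle replicates 3, 2 and 1. It was 50, 26 and 13 without 100 mg/kg/day replicates 1, 2 and 3, 12, 13 and 16 without those at 300, and 19 without either litter at 900 mg/kg/day. In every one of these 14 fits Testin, Cdkn1c, Svs5 and the steroid genes Fdx1, Scarb1 and Star passed. DESeq2 called 59 genes, all 28 among them.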

How the data were processed

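TempO-Seq estimated counts per gene were deposited by the authors for 14 libraries. STAR 2.7.8a, Partek, DESeq2 and rn7 are named per the submitters' processing notes, without roles. The tool that made the counts is not given in the sources used here. Of the values 83.6% were whole (tolerance 1e-09), and all were rounded. The assay targets 21119 genes per the labels. Of 18174 listed genes, 12719 passed filterByExpr and held 99.9% of counts. Library totals were 5558873 to 11272861. edgeR 4.0.16 (R 4.3.3; TMM, robust quasi-likelihood, 1 coefficient per dose group, 9 residual degrees of freedom, two-sided) fitted all 14 libraries, with Benjamini-Hochberg adjustment and a threshold of 0.05. The common biological coefficient of variation was 0.232. No replicate numbers or batches are in the labels, and p-values measure the spread between litters. CPM rest on TMM-scaled totals, and marker sums on unscaled totals.

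Members and lists were chosen with earlier results of these data known. Genes named are those that passed, a fixed panel, the 4 tested genes of smallest p in every list, and the 6 largest falls and rises with unadjusted p under 0.01, mean count of at least 20 and groups apart. Alternatives were RLE factors, library totals, other filters, DESeq2 1.42.0, limma-voom 3.58.1, attenuation-adjusted counts (16 genes differ), only the compared groups, and each library left out. The fitting was tested on simulated data. Promoter windows are from RefSeq (GRCr8), and genes with more than 1 window were left out of the motif counts of gene sets. Figures were drawn with matplotlib 3.10.9. A few genes of the lists are counted but not reported here by name.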

Additional observations from a re-analysis of the deposited data

How the results depend on the processing

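No paired analysis was possible because the numbers in the sample titles link no litter of one dose to a litter of another. The 28 genes at 600 mg/kg/day against vehicle became 15 with RLE size factors, 59 with DESeq2, 8 with only the 6 libraries compared, and 66 when vehicle replicate 1 and 100 mg/kg/day replicate 1 were both left out. With 1 library left out they numbered 6 to 50. Of the 28 genes, 15, 28, 7 and 25 were called in the first 4 of these settings, and the 3 lost in the last of them were Svs5 (edgeR adjusted p = 0.0562), Lrrc39 (0.0572) and Cyp11a1 (0.0658). Counts with library totals, both filters, limma-voom and attenuation-adjusted counts lay between 20 and 28. Against 100 mg/kg/day the count of 0 became 2 with no filter on low counts, 14 with DESeq2 and 1 with that pair of libraries left out, and it was 0 to 1 with 1 library left out. Against 300 mg/kg/day it was 0 in every setting run. With 1 library left out the sign turned in some fits for 4 genes: Srebf2 spanned -0.157 to 0.074, Hsd17b3 -0.0112 to 0.0759, Amh -0.169 to 0.427 and Fasn -0.348 to 0.112. The sign of Hsd17b3 also turned with library totals (-0.0034) and with no filter (-0.0075). With the pair left out Amh was at -0.169 and Fasn at 0.0062. List medians near 0 turned with single libraries in several lists, the following being examples. Without vehicle replicate 2 the medians of Hedgehog, interstitial progenitor and retinoic acid genes were 0.10, 0.02 and 0.03, that of macrophage markers was -0.02, and without vehicle replicate 1 that of nuclear receptors was -0.06. Without replicate 1 at 600 mg/kg/day the median of inhibin, activin and BMP genes was -0.03, and without replicate 3 those of endothelial and germ cell markers were -0.06 and 0.00. The medians moved by over 1.5 times without a turn for, among others, PPAR targets (-0.29 without vehicle replicate 2), xenobiotic response genes (-0.06 without vehicle replicate 1) and immediate early genes (0.34 without 600 mg/kg/day replicate 1). The cause was not tested. Genes near or under 20 counts per library, such as Hmgcs1 and Por, have wide intervals at this depth.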
